A study of Homo sapiens with 3 samples.

Results

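The ATP-binding cassette (ABC) transporter genes were followed in HaCaT cells, an immortalised human keratinocyte line, through 3 RNA-seq libraries. Members were the protein-coding genes whose symbol is ABC, a letter from A to G and a number. There were 45 such genes among the 58735 in the deposited table, and 27 of them reached 1 CPM (counts scaled to a common library total) in at least 1 library. The study concerns the links among oxidative stress, DNA damage and the epidermal barrier after particle exposure. Its groups were a control given no particles, carbon black (CB) given at 25 µg/mL, and the particulate material S1650b given at 50 µg/mL. All were wild-type HaCaT cells kept 24 h in DMEM without FBS. Each group is 1 library of 1 line, so no difference has a replicate check and no P value is given.

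ABC proteins bind and hydrolyse ATP in a conserved cassette, and most use that energy to move a substrate across a membrane. Subfamily A moves lipids, and in the epidermis ABCA12 loads glucosylceramide into the lamellar granules from which the lipid barrier is made. Subfamilies B, C and G include the drug and conjugate exporters MDR1 (ABCB1), the multidrug resistance-associated proteins (MRPs) and BCRP (ABCG2). Other members of B work in mitochondria, and most D members bring fatty acids into peroxisomes. E and F members are soluble proteins of translation that transport nothing.

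Library totals ranged from 20417744 to 20946139 gene counts, so 1 CPM was 20.4 to 20.9 counts. Of all genes, 14709 passed the 1 CPM filter. Levels within a gene are given as CPM scaled by TMM, a normalization that assumes most genes do not differ. A fold is the ratio of these CPM values, and its 95% interval (exact, Clopper-Pearson, conditional on the 2 counts) covers counting error only, not the spread between cultures. PCR copies without molecular identifiers are not independent, so the intervals may be too narrow. The size rule calls a gene higher, or lower, at a fold of 1.5 or more in that direction with the interval clear of 1. All 10 keratinocyte markers passed the filter in summed counts of 158578 to 288061 per library. The fibroblast list summed to 1834, 611 and 290 counts (control, CB, S1650b), nearly all from DCN, COL3A1 and COL1A1, with COL1A2, PDGFRA and PDGFRB at 0 in the control; its part in the results was not tested. The endothelial list summed to 654 to 1148 counts with PECAM1 at 0 or 1, most of it CDH5, the melanocyte list to 168 to 214 with TYR and DCT at 0, and the leukocyte list to 25 to 38 with PTPRC at 0 or 1. The hepatocyte or intestinal list had 1 to 3 counts. In bulk RNA, fewer cells of a type and less RNA per cell cannot be told apart.

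Per transcript length, the soluble members and the MRPs made up most of the family's RNA. On the deposited FPKM scale (counts scaled by gene length and library total), subfamilies E and F held 34.5%, 38.0% and 29.2% of the summed family level in the control, CB and S1650b libraries. Subfamily C held 31.6%, 30.2% and 37.9% in the same order. The mitochondrial B members held 10.9% to 13.2% and the lipid transporters 8.32% to 9.83%. In the control the highest members were ABCF1 at 25.9 FPKM, ABCF3 at 23.1, ABCC5 at 18.2, ABCC1 at 14.8 and ABCC3 at 13.9. ABCF1 and ABCF3 were also first and second in CB, at 30.2 and 24.4 FPKM. In S1650b the order changed, with ABCC3 first at 27.7 FPKM and ABCC5 second at 26.4, ahead of ABCF1 at 22.9. That order depended on the trends of fold with gene length and GC in this library, whose values are given with its comparison. With both trends taken out of the S1650b level, a step added after the values were seen, ABCF1 was at 27.4 FPKM, ABCC3 at 26.2, ABCF3 at 22.6 and ABCC5 at 21.4. With the length trend alone taken out, ABCF1 was at 23.6 and ABCC3 at 21.5, so ABCF1 was again above ABCC3 in both cases. At the other end, ABCA3, ABCA12, ABCG1, ABCB6 and ABCA13 were at or below 0.251 FPKM in the control.

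**Figure D1:**
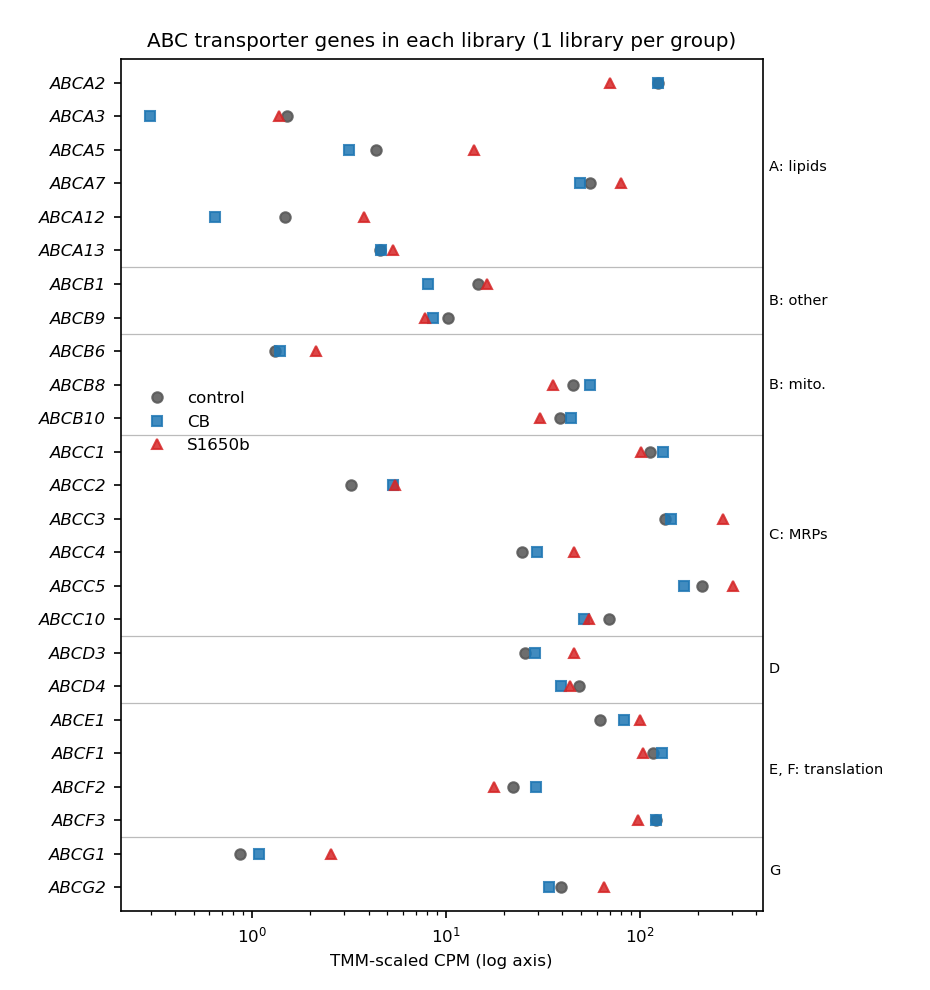
TMM-scaled CPM (log axis) of 25 of the 27 ABC genes that reached 1 CPM, 1 point per library (grey circles control, blue squares CB, red triangles S1650b), ordered by subfamily and role. The S1650b point of ABCC3 lies at 269 CPM against 135 in the control, and the CB point of ABCA3 at 0.298 CPM against 1.52.

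Against the control, few members differed in the CB library. Of the 27 members measured, 1 was higher (3.70%) and 4 were lower (14.8%), where 4.70% and 10.7% of all genes were. The median log2 fold was 0.01 over the members and −0.01 over all genes. The higher member was ABCC2, and ABCA3, ABCA12 and ABCB1 were among the lower ones. Both shares lie near the background. ABCA3 and ABCA12 passed the filter only through the control and S1650b libraries, so they had to be lower in CB to be counted. With the length trend removed 1 was higher and 4 lower (4.79% and 10.6% of all genes), and with length and GC trends removed 1 was higher and 3 lower (4.82% and 10.5%).

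In the S1650b library more members were higher. Of the 27, 9 were higher (33.3%, against 22.0% of all genes) and 1 was lower (3.70%, against 19.4%). The median log2 fold was 0.23 over the members and −0.04 over all genes. Higher members were ABCA5, ABCA12, ABCC2, ABCC3, ABCC4, ABCD3, ABCE1, ABCG1 and ABCG2, and the lower one was ABCA2. ABCG1 passed the filter only through the treated libraries, so it had to be higher there to be counted. Fold followed gene length and base composition in this library. Split into eighths by length, all genes had a median log2 fold of −0.29 for the shortest and 0.48 for the longest. Split by GC, the medians ran from 0.60 (GC-poor) to −0.43 (GC-rich). The corresponding CB medians were −0.10, 0.01, 0.05 and −0.08. Total-count scaling raised the median over all genes by 0.20 for S1650b against the control, relative to TMM. ABC genes are long, with a median exonic length of 7804 bp against 4566 bp over all genes, and none of the 27 was shorter than 4177 bp. With the length trend removed by lowess, 8 members stayed above the size rule and 4 were below it, against 20.4% and 17.8% of all genes. With length and GC trends removed, 6 were higher (22.2%, against 16.7%) and 2 lower (7.41%, against 15.4%), and the median log2 fold was 0.09. Only ABCA5, ABCA12, ABCC3 and ABCG1 among the higher members, and ABCA2 as the lower one, kept their call under both removals.

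**Figure D2:**
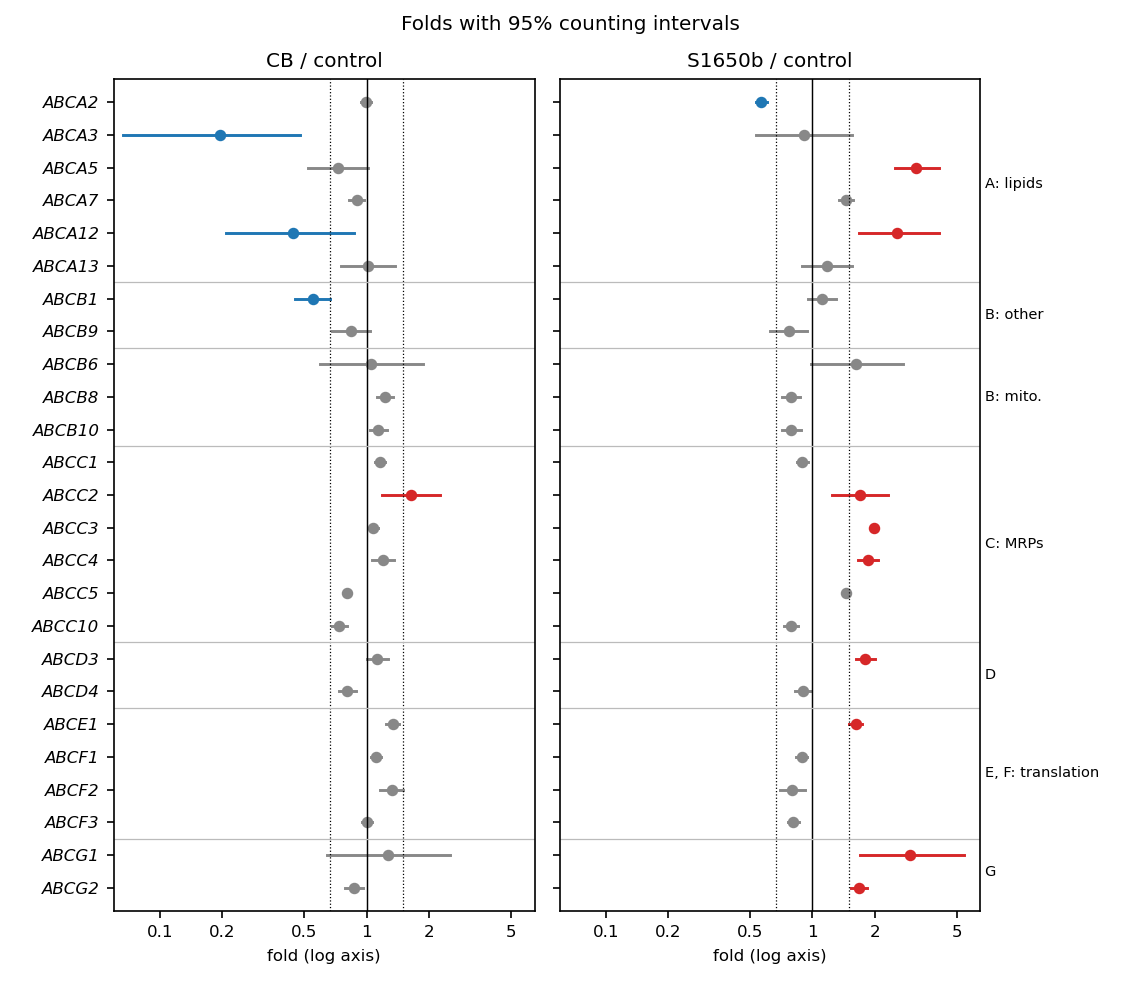
Fold of each of 25 members against the control (log axis) with its 95% counting interval, CB on the left and S1650b on the right; red is called higher, blue called lower and grey neither, and dotted lines mark a fold of 1.5 in each direction. ABCA12 is blue on the left (0.439) and red on the right (2.58).

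**Figure D3:**
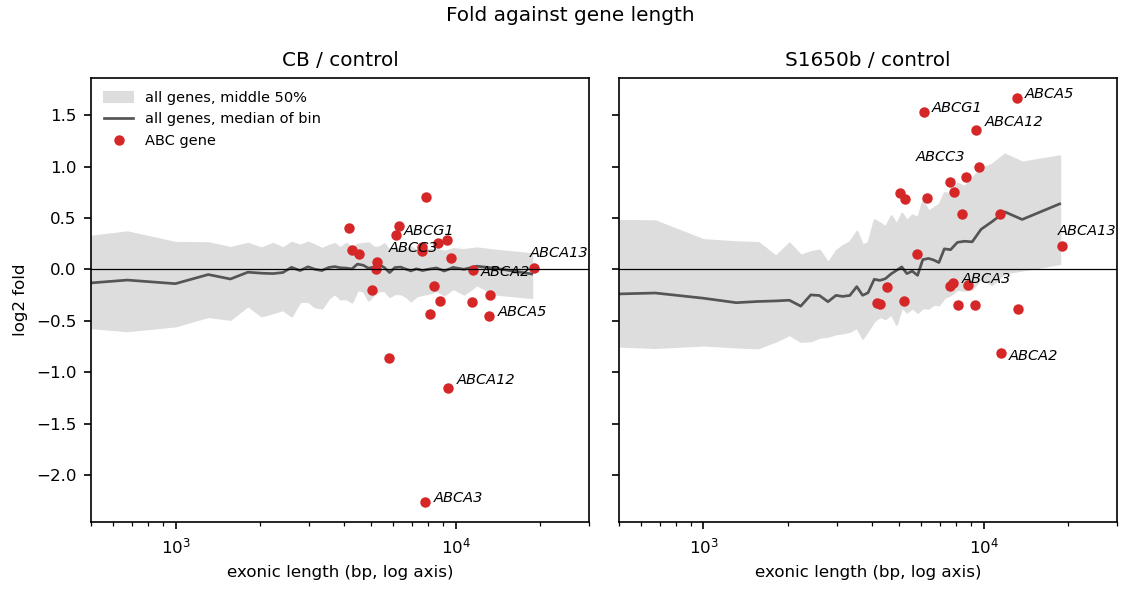
Log2 fold against the control by exonic length (log axis) for CB (left) and S1650b (right); the line is the median and the band the middle 50% of all genes in 40 bins of length, and red points are 25 of the 27 ABC genes. The line is nearly flat for CB and climbs with length for S1650b, where ABCA5 lies at 1.67 and ABCA2 at −0.82.

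Comparing the particle libraries directly, 11 of 27 members were higher in S1650b than in CB (40.7%, against 26.3% of all genes) and 3 were lower (11.1%, against 20.6%). The doses were 50 and 25 µg/mL, so dose and particle cannot be told apart. With the length trend removed 6 were higher and 5 lower (25.1% and 19.3% of all genes), and with length and GC trends removed 10 and 3 (22.7% and 17.5%). Total-count scaling gave 13 higher and 1 lower, against 33.2% and 14.0% of all genes. As scaled, ABCA12 had the widest gap, at 5.88-fold (3.26 to 11.5). Next came ABCA3 at 4.65-fold (1.91 to 13.6) and ABCA5 at 4.37-fold (3.33 to 5.82). ABCA12 and ABCA3 passed the filter only through the control and S1650b libraries, so they had to be lower in CB to be counted. With both trends removed ABCA3 came first at 4.83-fold, ABCA12 was at 3.98-fold and ABCA5 at 2.31-fold. The other higher members were ABCA7, ABCB1, ABCC3, ABCC4, ABCC5, ABCD3, ABCG1 and ABCG2, and the lower ones were ABCA2, ABCB8 and ABCF2.

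Among the lipid transporters of subfamily A, ABCA12 went in opposite directions in the particle libraries. ABCA12 (ENSG00000144452, chromosome 2, 214931542 to 215138428, minus strand, GRCh38) is the lamellar granule lipid transporter whose loss causes harlequin ichthyosis. It had 29 counts in the control (1.47 CPM), 13 with CB (0.647 CPM) and 85 with S1650b (3.80 CPM). The control thus lay between the particle libraries. CB was 2.28-fold lower (1.15 to 4.78) and S1650b 2.58-fold higher (1.68 to 4.08), or 1.68-fold with length and GC trends removed. Both calls rest on few counts. ABCA12 passed the filter only through the control and S1650b libraries, so it had to be lower in CB to be counted.

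ABCA5 and ABCA2, both of late endosomes and lysosomes, differed in opposite directions in the S1650b library. ABCA5 (chromosome 17, 69244311 to 69327244) had 4.37 CPM in the control, 3.18 with CB and 13.9 with S1650b. S1650b was 3.18-fold higher than the control (2.50 to 4.09), while CB had a fold of 0.728 (0.519 to 1.02). ABCA5 is long at 13158 bp and low in GC at 33.1%, and with both trends removed its S1650b fold was 1.63. ABCA2 (chromosome 9, 137007227 to 137028922) had 124 CPM in the control, 124 with CB and 70.5 with S1650b. S1650b was thus 1.76-fold lower (1.65 to 1.88), and CB had a fold of 0.995 (0.941 to 1.05). The gene is nearly as long, at 11514 bp, but rich in GC at 63.7%, and was 1.91-fold lower with both trends removed.

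ABCA3, the phospholipid transporter of lung surfactant, was the member with the lowest CB value relative to the control. It had 30 counts in the control, 6 with CB and 31 with S1650b, so the control and S1650b were close and CB stood below both. ABCA3 passed the filter only through the control and S1650b libraries, so it had to be lower in CB to be counted. CB was 5.11-fold lower (2.09 to 15.0), and S1650b had a fold of 0.910 (0.533 to 1.56). ABCA7, which takes part in lipid export and phagocytosis, had 55.2, 49.4 and 80.4 CPM in control, CB and S1650b. Its S1650b fold of 1.46 (1.35 to 1.57) missed the size rule and met it with both trends removed (1.51) and under total-count and upper-quartile scaling. ABCA13, the largest member at 19074 bp, had 4.57, 4.63 and 5.37 CPM. Its S1650b fold was 1.17 as scaled (0.886 to 1.56) and 0.615 with both trends removed, so its side of 1 depended on that step. ABCA1, the main cholesterol exporter of many cells, had only 4, 2 and 5 counts.

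The start regions of these genes are shown because ABCA5 and ABCA2 differed in opposite directions and ABCA12 differed between the particles. RefSeq windows of 300 bases (GRCh38.p14, 250 bases before to 50 after an annotated start) were matched by symbol for 35 of the 45 members and for 22 of the 27 measured, which have 32 windows. Both strands were searched for GCGTG, the core bound by the aryl hydrocarbon receptor (AHR) with ARNT, and for TGACNNNGC, the antioxidant response element bound by NRF2. Capitals mark these matches, and the motifs were chosen after the values were seen. ABCA5 has 1 annotated start (chr17:69327084-69327383, minus strand), and ABCA2 (chr9:137028873-137029172 and chr9:137028188-137028487, minus strand) and ABCA12 (chr2:215138577-215138876 and chr2:215032037-215032336, minus strand) have 2 each.
ABCA5: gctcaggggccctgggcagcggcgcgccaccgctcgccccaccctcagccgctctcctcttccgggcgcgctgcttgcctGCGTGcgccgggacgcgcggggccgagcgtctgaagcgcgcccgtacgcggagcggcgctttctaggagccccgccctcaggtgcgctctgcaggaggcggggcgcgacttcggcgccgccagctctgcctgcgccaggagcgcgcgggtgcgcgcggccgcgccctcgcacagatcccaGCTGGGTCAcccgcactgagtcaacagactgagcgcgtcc
ABCA2 start 1: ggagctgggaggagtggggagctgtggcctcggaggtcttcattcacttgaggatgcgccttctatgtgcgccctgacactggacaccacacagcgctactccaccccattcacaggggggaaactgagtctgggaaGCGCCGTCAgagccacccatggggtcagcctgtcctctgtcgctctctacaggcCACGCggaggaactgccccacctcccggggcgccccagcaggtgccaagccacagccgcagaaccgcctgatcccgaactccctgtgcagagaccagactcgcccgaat
ABCA2 start 2: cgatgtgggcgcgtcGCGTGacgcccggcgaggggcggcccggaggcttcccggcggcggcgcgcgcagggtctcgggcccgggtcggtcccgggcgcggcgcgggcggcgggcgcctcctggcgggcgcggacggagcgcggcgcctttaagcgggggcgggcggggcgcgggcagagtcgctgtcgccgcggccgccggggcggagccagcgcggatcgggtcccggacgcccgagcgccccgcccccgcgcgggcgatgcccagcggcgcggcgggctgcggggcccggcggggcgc
ABCA12 start 1: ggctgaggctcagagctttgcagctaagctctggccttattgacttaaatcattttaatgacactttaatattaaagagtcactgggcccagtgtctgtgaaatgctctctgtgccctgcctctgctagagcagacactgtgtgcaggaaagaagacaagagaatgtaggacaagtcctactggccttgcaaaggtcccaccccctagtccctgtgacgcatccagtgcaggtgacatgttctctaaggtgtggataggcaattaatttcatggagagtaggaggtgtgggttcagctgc
ABCA12 start 2: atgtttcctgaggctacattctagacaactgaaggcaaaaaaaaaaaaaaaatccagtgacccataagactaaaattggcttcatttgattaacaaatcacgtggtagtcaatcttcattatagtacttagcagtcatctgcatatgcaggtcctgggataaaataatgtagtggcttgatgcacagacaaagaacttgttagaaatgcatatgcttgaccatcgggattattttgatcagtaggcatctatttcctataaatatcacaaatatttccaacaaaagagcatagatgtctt
ABCA5 and the first ABCA2 start each held 1 AHR-ARNT core and 1 antioxidant response element. Neither ABCA12 window held a match to either motif. The AHR-ARNT core occurred in 21 of the 32 member windows (65.6%) and in 36.5% of all 35116 windows, and the antioxidant response element in 10 (31.2%) and 13.3%. Windows are not separate genes: 6 of the 22 members have more than 1, and those of ABCG2 overlap by up to 250 bases, so the same match can count more than once. Counted by gene, 16 of the 22 members (72.7%) held the AHR-ARNT core in any window, against 40.6% of 27305 genes, and 10 (45.5%) the antioxidant response element, against 16.1%. Other motifs were searched in the same way. By gene, the E-box (CACGTG) occurred in 27.3% of members against 8.77% of genes, and the GC box (GGGCGG) in 72.7% against 48.3%. The TATA box occurred in 18.2% against 14.0%, and the CCAAT box in 31.8% against 39.7%. Higher shares were thus not particular to the AHR-ARNT core and the antioxidant response element. The member windows were also richer in GC, with a median of 65.5% against 58.7%. These members had all passed the 1 CPM filter, whereas the genes and windows they are set against were not filtered. Among the members below the filter with a window, only ABCC11 and ABCG4 held the AHR-ARNT core or the antioxidant response element. The part of the filter in the higher shares was not tested. A match is a run of letters, not a shown site.

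Of the other B members at membranes outside mitochondria, ABCB1 differed with CB. ABCB1 (ENSG00000085563, chromosome 7, 87503633 to 87713323) encodes P-glycoprotein, an exporter of many hydrophobic drugs. Its level was 14.7 CPM in the control, 8.11 with CB and 16.4 with S1650b. Again CB stood alone below the other libraries, 1.82-fold lower than the control (1.5 to 2.22), and S1650b had a fold of 1.11 (0.95 to 1.3). Its neighbour ABCB4, a phospholipid transporter of bile, had 1, 1 and 5 counts. ABCB9, a lysosomal peptide transporter, had 10.2, 8.61 and 7.83 CPM and no call in either comparison, and exons of other genes overlap 24.5% of it.

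The mitochondrial B members gave no call against the control in either particle library, although ABCB8 met the rule as lower in S1650b with the length trend removed. ABCB8 had 45.2, 55.3 and 35.6 CPM in control, CB and S1650b, and ABCB10, linked to heme synthesis, had 38.9, 44.4 and 30.8. ABCB8 and ABCB10 shared an order, with CB highest and S1650b lowest. Between the particle libraries ABCB8 was 1.55-fold lower in S1650b (1.41 to 1.7), a call lost under total-count and upper-quartile scaling, and ABCB10 was 1.44-fold lower (1.3 to 1.6), short of the rule. ABCB6, a porphyrin transporter, had 26, 28 and 48 counts, and 54.7% of its exons overlap a second gene model (0, 1 and 11 counts), so its counts are uncertain. The ABCB6 fold of 1.63 in S1650b had an interval of 0.989 to 2.73. It met the rule under total-count, median-of-ratios and upper-quartile scaling and with both trends removed (2.03).

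Of the 6 measured members of subfamily C, 3 were higher in S1650b (50.0%, against 22.0% of all genes) and 0 lower. In CB 1 was higher (16.7%, against 4.70%) and 0 lower. With the length trend removed, 2 were higher in S1650b (33.3%, against 20.4%) and 1 lower (16.7%, against 17.8%). With both trends removed, 1 was higher (16.7%, the same as the 16.7% of all genes) and 0 lower. ABCC3 (ENSG00000108846, chromosome 17, 50634777 to 50692252), MRP3, exports glucuronide conjugates. It was at 135 CPM in the control, 146 with CB and 269 with S1650b. Only the S1650b library stood apart: 1.99-fold higher (1.90 to 2.09), or 1.88-fold with both trends removed, against 1.08 (1.02 to 1.14) in CB. With 2654 to 6007 counts it had the narrowest interval of the higher members. ABCC2 (chromosome 10, 99782640 to 99852594), MRP2, an exporter of glutathione and glucuronide conjugates, had 3.25 CPM in the control, 5.32 with CB and 5.51 with S1650b. Here both particle libraries lay above the control, by 1.64-fold in CB (1.19 to 2.27) and 1.69-fold in S1650b (1.24 to 2.33). The direct ratio of S1650b to CB was 1.03 (0.792 to 1.35). Those comparisons share the control library, and the S1650b call was lost with trends removed (1.29).

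ABCC4 (chromosome 13, 95019829 to 95301475), MRP4, exports cyclic nucleotides and conjugates. It had 24.7 CPM in the control, 29.5 with CB and 45.9 with S1650b, a 1.86-fold difference for S1650b (1.67 to 2.08) and a fold of 1.20 (1.06 to 1.35) for CB. With the length trend removed it was 1.51-fold, and with both removed 1.28-fold. Its start region (chr13:95301402-95301701, minus strand) is printed because it and that of ABCA5 were the windows of higher members, among those with a window, that held both motifs. Single windows of ABCA2, ABCA3, ABCB9, ABCC10 and ABCF1 held both motifs too, and none of these members was called higher against the control. The ABCC4 window held 3 AHR-ARNT cores and 1 antioxidant response element.
ABCC4: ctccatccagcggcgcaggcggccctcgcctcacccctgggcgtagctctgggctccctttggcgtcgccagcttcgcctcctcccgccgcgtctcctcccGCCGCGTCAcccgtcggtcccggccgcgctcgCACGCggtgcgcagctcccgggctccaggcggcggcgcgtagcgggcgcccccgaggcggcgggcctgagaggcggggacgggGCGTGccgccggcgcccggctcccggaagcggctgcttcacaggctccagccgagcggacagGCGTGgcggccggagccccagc
ABCC5, MRP5, an exporter of cyclic nucleotides and heme, had 210 CPM in the control, 169 with CB and 305 with S1650b. The S1650b fold of 1.45 (1.4 to 1.51) missed the rule, met it under total-count and upper-quartile scaling, and was 1.07 with the length trend removed, while CB had a fold of 0.804 (0.768 to 0.841). ABCC1, MRP1, the main exporter of glutathione conjugates in many cells, had 113, 132 and 101 CPM. That put ABCC1 highest in CB, with folds of 1.17 (1.10 to 1.23) and 0.894 (0.843 to 0.949), neither called. ABCC10, MRP7, had 69.7, 51.6 and 55.0 CPM, below the control in both, with folds of 0.740 (0.682 to 0.802) and 0.789 (0.730 to 0.853). It met the rule as lower in S1650b with the length trend removed, as ABCB9 did. In S1650b, ABCC2, ABCC3, ABCC4 and ABCC5 had folds above 1 and ABCC1 and ABCC10 below 1, but ABCC1 lay above 1 under total-count scaling (log2 fold 0.04).

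In subfamily D, ABCD3 was higher in S1650b. ABCD3, which imports branched-chain fatty acids and bile acid precursors, had 25.5, 28.8 and 46.1 CPM in control, CB and S1650b. It was 1.81-fold higher in S1650b (1.62 to 2.01) but 1.16-fold with both trends removed, and its GC content is 37.6%. ABCD4, which works in lysosomal cobalamin export, had 48.7, 39.4 and 43.8 CPM and no call.

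All 4 soluble members passed the filter, and ABCE1 was the one called against the control. ABCE1, which splits ribosomes after termination, had 62.3 CPM in the control, 83.2 with CB and 101 with S1650b. The order as scaled was control, CB, S1650b, with folds of 1.34 (1.24 to 1.44) in CB and 1.62 (1.51 to 1.74) in S1650b. With both trends removed the folds were 1.29 and 1.14, and the ratio of S1650b to CB was 0.880 (0.825 to 0.938), so the particle libraries changed places. ABCF1, ABCF2 and ABCF3, of translation initiation and amino acid sensing, had S1650b folds below 1 (0.887, 0.798 and 0.809), although ABCF1 lay above 1 under total-count scaling and with both trends removed (log2 folds 0.03 and 0.09). ABCF1 had 118, 131 and 105 CPM, ABCF2 22.1, 29.2 and 17.6, and ABCF3 121, 122 and 98.1, each lowest in S1650b as scaled. With both trends removed, the S1650b folds over the control were 0.971 (0.845 to 1.12) for ABCF2 and 0.980 (0.924 to 1.04) for ABCF3. ABCF2 was 1.66-fold lower in S1650b than in CB (1.45 to 1.89), a call lost with both trends removed and under total-count scaling. For ABCF2, 45.8% of its exons overlaps a second gene model, which had 0 counts in each library.

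Both G members that passed the filter were called higher in S1650b, where 22.0% of all genes were. ABCG1 passed only through the treated libraries, so it had to be higher there to be counted. With both trends removed, 1 of the 2 was higher, against 16.7% of all genes. ABCG1 (ENSG00000160179, chromosome 21, 42199689 to 42297244), a sterol exporter induced by the liver X receptors (LXR), had 17 counts in the control, 22 with CB and 57 with S1650b. The S1650b library stood above both others, 2.95-fold over the control (1.69 to 5.41) and 3.29-fold with both trends removed, while CB had a fold of 1.27 (0.642 to 2.54). ABCG2 (chromosome 4, 88090264 to 88231322), BCRP, an exporter of drugs, urate and porphyrins that AHR and NRF2 can induce, had 39.2, 34.1 and 65.6 CPM. S1650b was 1.67-fold higher (1.53 to 1.83), and CB had a fold of 0.871 (0.784 to 0.966). The call for ABCG2 held with the length trend removed (1.67) and not with both removed (1.33).

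**Figure D4:**
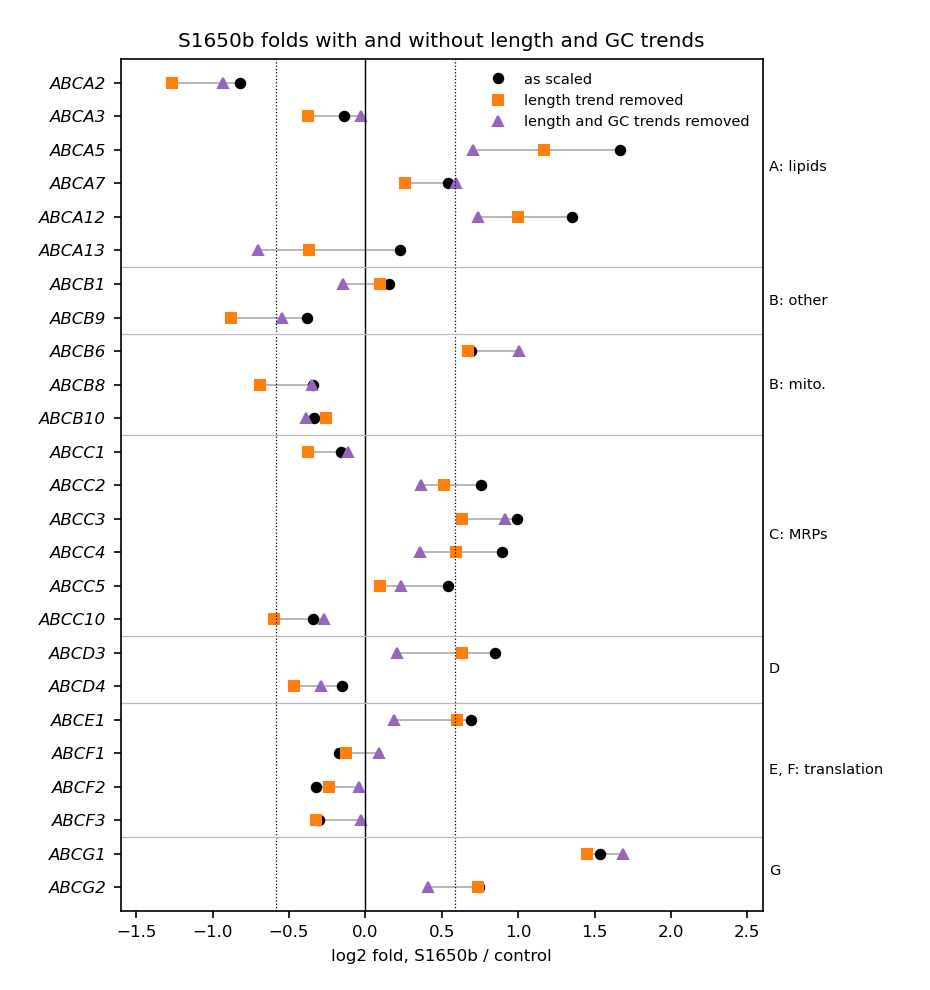
Log2 fold of S1650b against the control for 25 members as scaled (black circles), with the length trend removed (orange squares) and with length and GC trends removed (purple triangles); dotted lines mark a fold of 1.5 in each direction. ABCG1 stays between 1.45 and 1.69, ABCA5 goes from 1.67 to 0.70, and ABCA13 crosses 0.

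The 18 members below the filter had at most 15 counts in any library, and 7 of them had 0 in all 3: ABCA8, ABCB5, ABCC8, ABCC9, ABCC12, ABCD2 and ABCG4. A count of 0 allows up to 3 counts. The closest to the filter from below was ABCC6 with 9, 5 and 15 counts (0.735 CPM at most) and from above ABCA3 (1.52 CPM at most). ABCC6, mutated in pseudoxanthoma elasticum, has pseudogene copies, which had 0 counts. In the ABCA cluster on chromosome 17, ABCA5 was the one gene measured: ABCA8 had 0 counts throughout, ABCA9 2, 0 and 0, ABCA6 0, 1 and 0, and ABCA10 12, 11 and 13. ABCA10 thus stayed within 11 to 13 counts where its neighbour ABCA5 had 86 in the control and 311 with S1650b. ABCG5 and ABCG8, which form the sterol exporter of liver and gut, had 1, 0 and 0 and 0, 0 and 4 counts. The rest were ABCA4, the retinal transporter (2, 0 and 0), ABCB11, the bile salt exporter (0, 1 and 0), and ABCC11, the earwax-type exporter (3, 2 and 2). TAP1 and TAP2, peptide transporters of antigen presentation, and CFTR, a chloride channel, belong to the same superfamily under other symbols. TAP1 had folds of 0.702 in CB and 0.774 in S1650b, TAP2 1.14 and 0.967, and CFTR 0 counts.

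Genes that act with the transporters were taken from lists of their partners, and only the genes of a list that passed the filter are counted. For each list, the shares of all genes to read its counts against are those given above: 22.0% higher and 19.4% lower in S1650b (16.7% and 15.4% with both trends removed), and 4.70% and 10.7% in CB. Regulators that sense xenobiotics or stress had 6 higher and 3 lower of 12 in S1650b (50.0% and 25.0%, against 22.0% and 19.4% of all genes; RXRA is also in the cholesterol list), and 0 higher and 1 lower in CB. The median log2 fold in S1650b was 0.42. PPARA, a lipid-sensing receptor, was 2.02-fold and NR3C1, the glucocorticoid receptor, 2.55-fold higher in S1650b, and AHRR, the AHR repressor, was 2.30-fold higher. Outside the rule for named genes, and picked after their values were seen, AHR had an S1650b fold of 1.63 and NFE2L2, which encodes NRF2, 1.83. With both trends removed AHR was at 1.02, NFE2L2 at 1.61, NR3C1 at 1.53 and PPARA at 1.41, and the list had 3 higher and 2 lower (25.0% and 16.7%, against 16.7% and 15.4%). Enzymes and carriers that supply glutathione and conjugates to the MRPs had 5 higher and 3 lower of 14 in S1650b (35.7% and 21.4%, the second near the 19.4% of all genes), and 2 and 1 in CB (14.3% and 7.14%, against 4.70% and 10.7%). SLC7A11, the cystine importer, was 10.0-fold higher in S1650b (5.70-fold with both trends removed) and 2.10-fold in CB, GCLM of glutathione synthesis 2.12-fold and 1.68-fold. GGT1, which breaks glutathione down outside the cell, was 2.66-fold and 2.44-fold lower, and MGST2, a microsomal transferase, 2.13-fold lower in S1650b. The list had 3 higher and 3 lower (21.4% each) with both trends removed.

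Cholesterol genes around ABCG1 had 1 higher and 1 lower of 14 in S1650b (0 and 2 with both trends removed) and 1 higher and 2 lower in CB. RXRA, the partner of LXR, was 1.87-fold lower in S1650b and 1.57-fold in CB, and SCARB1, a lipoprotein receptor, was 1.78-fold higher in CB. Epidermal lipid and barrier genes around ABCA12 had 1 higher and 3 lower of 15 in S1650b (1 and 4 with both trends removed), and 0 and 2 in CB. CERS3, a ceramide synthase of the barrier, was 2.82-fold lower and TGM1, transglutaminase 1, 5.13-fold lower in S1650b, where ELOVL4, a fatty acid elongase, was 1.93-fold higher. Of the 10 keratinocyte markers, 2 were higher in S1650b (DSP 1.79-fold, DSG3 1.75-fold) and 3 lower (KRT6A 3.89-fold, KRT5 3.15-fold, KRT14 2.91-fold), with a median log2 fold of 0.09. Removing both trends made KRT17 the higher one (1.95-fold), and the same 3 were lower (KRT14 at a fold of 0.527). None of the 10 met the rule in CB, and their part in these values was not tested. TGM1 was thus lower in both libraries, 2.50-fold in CB, where ABCA12 was lower, and 5.13-fold in S1650b, where ABCA12 was higher.

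Iron-sulfur and heme partners of the mitochondrial members had 0 higher and 6 lower of 19 in S1650b (31.6%, against 19.4% of all genes; median log2 fold −0.50), and 0 and 1 in CB. GLRX5, a glutaredoxin of iron-sulfur assembly, was 1.95-fold lower and UROD, of heme synthesis, 1.61-fold lower. UROD lost its call with both trends removed, at a fold of 0.853, and then 3 of the 19 were lower (15.8%), near the 15.4% of all genes. Peroxisomal partners of subfamily D had 3 higher and 3 lower of 18 in S1650b (0 and 1 with both trends removed) and 0 and 1 in CB. MMACHC, a cobalamin chaperone, was 1.85-fold lower in S1650b. Ribosome recycling and amino acid sensing partners of ABCE1 and the F members had 3 higher and 0 lower of 15 in S1650b (1 and 2 with both trends removed), and 1 and 0 in CB. EIF2AK4, the kinase GCN2, was 2.40-fold higher and EIF5B 2.21-fold in S1650b, the second 1.41-fold with both trends removed.

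Carriers of drugs and organic ions from the solute carrier superfamily, which mostly bring substrates in, had 1 higher and 4 lower of 7 in S1650b (14.3% and 57.1%, against 22.0% and 19.4% of all genes), and 3 higher (42.9%, against 4.70%) and 0 lower in CB. SLC29A1, a nucleoside carrier, was 3.74-fold lower in S1650b and 1.61-fold higher in CB. SLC19A1, the folate carrier, was 2.13-fold lower and 1.61-fold higher, and SLCO4A1, an organic anion carrier, 4.45-fold lower and 1.79-fold higher. SLCO1B3 was 1.77-fold higher in S1650b, or 1.46-fold with both trends removed. With both trends removed 0 were higher and 5 lower in S1650b. The difference between this list and the exporters was not tested.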

How the data were processed

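RNA from 3 HaCaT cultures was measured, 1 library per group, from total RNA libraries made with a NEBNext Ultra kit, per the labels' protocols. The deposited count table holds whole-number counts per Ensembl gene. A second deposited table gives FPKM as the authors computed it, and the exonic lengths implied there matched GENCODE 29 (GRCh38) within 1% for 100% of 12907 genes. CASAVA 1.7 and 2 mouse builds, mm8 and mm9, appear in the submitters' processing notes, and those builds do not match the human identifiers. The aligner, the counter and any use of strand were not given in the sources used here. Overlapping and antisense genes are therefore uncertain. Positions, types, lengths and GC content came from GENCODE 29, and symbols (58207 of 58735 genes) from a gene name table.

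Counts were scaled with TMM factors from edgeR 4.0.16 (0.952 control, 0.960 CB, 1.09 S1650b) over the 14709 genes kept. The model tests of edgeR need replicates and were not run. Before log2, 0.5 counts were added. Length and GC trends were removed by lowess (span 30%) with the mean level kept; GC was known for 14703 genes. Alternatives were total-count, upper-quartile and DESeq2 1.42.0 scaling, FPKM with 0.1 added, other filters (none, 5 CPM), a fold of 2 and 5 counts added. Members, lists and tests were chosen with earlier results of these data known. Members measured are named apart from some that are not reported here or drawn, though they stay in the counts; list genes named were at most 4 per list, ranked by the interval end nearest to 1. The procedure was tested on simulated data, for 14709 genes and counting error alone. Only a small set of these genes was given a change, so the shares of changed genes called rest on few genes. For S1650b against control, 40% of genes changed 1.5-fold and 86% changed 2-fold were called, with 0.744% of unchanged genes. For CB against control the shares were 46% and 94%, with 0.910% of unchanged genes. Python 3.11.15, scipy 1.17.1 and statsmodels 0.14.6 were used.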

Additional observations from a re-analysis of the deposited data

How the results depend on the processing

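With 1 library per group no library could be left out and no paired analysis was possible because no group has a second replicate. Over the alternatives run, the members' median log2 fold ranged from −0.06 to 0.06 for CB against control, 0.02 to 0.43 for S1650b against control and 0.12 to 0.56 for S1650b against CB. Scaling by median of ratios or upper quartile and removal of the filter kept each count within 1.5 times. A fold of 2 left 0 higher and 2 lower members for CB against control (1.69% and 5.60% of all genes), 3 and 0 for S1650b against control (12.1% and 7.86%), and 5 and 0 for S1650b against CB (16.1% and 9.46%). For CB against control, 2 members were lower with the deposited FPKM (9.72% of all genes) and 2 with a filter of 5 CPM (7.49%), where 4 were lower in the count table; ABCA3 and ABCA12 do not reach 5 CPM. Scaling by total counts left 1 member lower in S1650b than in CB (14.0% of all genes). With the length trend removed, 4 members were lower in S1650b than in the control, and 6 were higher and 5 lower in S1650b than in CB. With length and GC trends removed, 2 were lower in S1650b than in the control. No called member changed its direction under the alternatives run. Depth limits ABCA3, ABCA12, ABCB6 and ABCG1, whose counts were between 6 and 85.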
